A study of Saccharomyces cerevisiae with 3 samples.

Results

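The thioredoxin system of budding yeast was followed upon osmostress through 9 genes: the thioredoxin genes TRX1, TRX2 and TRX3, the thioredoxin reductase genes TRR1 and TRR2, and the peroxiredoxin genes TSA1, TSA2, AHP1 and DOT5. They were chosen by symbol, and all 9 were found among the 4069 genes that the annotation of the array names, each with 7 spots. RNA came from 3 independent cultures of the wild-type strain BY4741, grown in YPD to mid-log phase. For each culture, cells given 0.4 M NaCl for 15 minutes (Cy3) were set against untreated cells (Cy5) on 1 two-colour array. The dyes were not exchanged on any array, so a dye effect particular to a gene cannot be told apart from an effect of NaCl.

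Thioredoxins are small proteins that reduce disulfide bonds in other proteins through a pair of cysteines, and thioredoxin reductases return them to the reduced form with electrons from NADPH. Peroxiredoxins use a reactive cysteine to break down hydrogen peroxide and organic peroxides, and most of them are recycled by thioredoxin. TRX1, TRX2 and TRR1 encode the cytosolic proteins of this chain, and TRX3 and TRR2 the mitochondrial ones. TSA1, TSA2 and AHP1 encode cytosolic peroxiredoxins, and DOT5 a nuclear one.

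Each value below is the log2 ratio of NaCl over untreated cells, averaged over the spots of a gene on 1 array. A value of 0 is no change relative to the array as a whole, since the ratios are centred near 0, and a shift shared by all transcripts would not appear. The direction was read from genes with a reported response. STL1, a glycerol symporter gene, stood at 7.42, 8.37 and 8.33 in replicates 1, 2 and 3. All 385 named genes of the study's osmoresponsive table were above 0 on every array. The study chose that table by fold change in its own microarray data, so their sign shows only which way the ratio runs. HIS3, LEU2, MET17 and URA3, which are deleted in whole or in part in BY4741, lay within 0.21 of 0 on every array, and none of the 4 passed the test. Replicates 2 and 3 were closest to each other (Pearson's r across genes 0.971), and replicates 1 and 3 furthest apart (0.890). Over the 3 arrays, the SD of a gene had a median of 0.16. Ratios carry no transcript level, so the abundance of these mRNAs was not compared.

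Upon osmostress 5 of the 9 genes rose (limma, Benjamini-Hochberg adjusted p under 0.05 over 4069 genes). None of the others fell, and 4 stayed on the other side of the threshold. Of all genes, 26.9% rose and 27.9% fell by the same test. The 5 that rose were the peroxiredoxin genes TSA2, TSA1 and AHP1 and both mitochondrial genes, TRX3 and TRR2. The increases were small, from 1.23-fold to 1.45-fold. None of the 9 genes reached the fold threshold with which the study defined osmoresponsive genes. Only 380 of all 4069 genes exceeded that level, so staying below it does not set this family apart. The median log2 ratio of the 9 genes was 0.30, against -0.01 over all genes. At an unadjusted p under 0.05 (limma) the same number of members, 5, passed, as did 2450 of all 4069 genes. Of the 5 that rose, only TSA2 passed with each array left out in turn. Without replicate 2 or 3, the adjusted p followed the size of a gene's mean, with little weight on its own spread. In the fit without replicate 2, TRX3 (0.15 and 0.66, mean 0.40) had an adjusted p of 0.0836 (limma). The glutathione synthesis gene GSH1 (-0.32 and -0.49, mean -0.40) had 0.085. A call lost in these fits is thus not by itself a sign that the gene's arrays disagree. Without replicate 2, TSA2 was the only member that rose, and 19.1% of all genes did. Without replicate 3, TSA2 was again the only member that rose, TRX2 fell, and 24.8% of all genes rose and 25.2% fell.

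**Figure D1:**
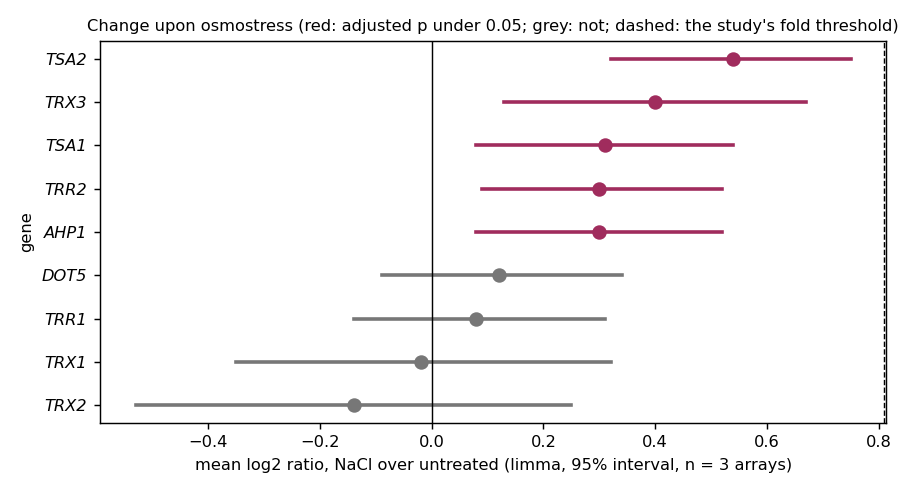
Mean log2 ratio of NaCl over untreated cells for each of the 9 genes, with the 95% interval from limma (n = 3 arrays); red marks an adjusted p under 0.05. The upper ends of all intervals stay below the dashed line, the fold threshold of the study (0.81 on the log2 scale), and the intervals of DOT5, TRR1, TRX1 and TRX2 span 0.

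TSA2, which encodes the less abundant of the twin cytosolic peroxiredoxins, showed the highest mean of the family. Its log2 ratio was 0.54, 0.61 and 0.46 in replicates 1, 2 and 3. All 3 arrays were thus well above 0 and close to each other. The mean of 0.54 ± 0.08 (SD, n = 3) is a 1.45-fold increase (95% interval 1.25 to 1.68, adjusted p = 0.00176, limma). A single spot of TSA2 read 1.12 in replicate 1 and 1.40 in replicate 2, above its other spots there. The median of the 7 spots was 0.46, 0.48 and 0.47, and a fit on medians gave 0.47 with an adjusted p of 0.00327. Across all named genes, those nearest to TSA2 over the 3 arrays, by Euclidean distance between log2 ratios, were PTP2, which encodes a tyrosine phosphatase that acts on Hog1 (distance 0.02), the arginine permease gene CAN1 (0.05) and the SNARE gene SEC20 (0.06).

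TSA1, the gene of the abundant cytosolic peroxiredoxin, read 0.13, 0.39 and 0.39. AHP1, which encodes a peroxiredoxin that prefers organic hydroperoxides, read 0.16, 0.37 and 0.37. In both genes replicate 1 was lowest and all arrays were above 0. TSA1 rose 1.24-fold (interval 1.05 to 1.45, adjusted p = 0.0317, limma) and AHP1 1.23-fold (1.05 to 1.44, adjusted p = 0.0306). AHP1 was the nearest of all named genes to TSA1 over the 3 arrays, at a distance of 0.03, a pair singled out after its values were seen. The match was not mutual, since TSA1 was 3rd in distance from AHP1, and genes outside this family lay at 0.04 from TSA1. Neither gene passed when replicate 2 was left out (adjusted p = 0.298 for TSA1 and 0.294 for AHP1) or when replicate 3 was (0.131 for each).

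DOT5, the nuclear peroxiredoxin gene, read 0.09, 0.07 and 0.21. Its values were above 0 on all 3 arrays but below those of AHP1 on each of them, by 0.07, 0.31 and 0.16. DOT5 did not pass the test (1.09-fold, interval 0.938 to 1.26, adjusted p = 0.295, limma), so an increase of up to about 1.26-fold or a small decrease would be within its error. The mitochondrial peroxiredoxin gene PRX1 and the sulfiredoxin gene SRX1, whose product repairs overoxidized peroxiredoxins, were not analysed here.

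**Figure D2:**
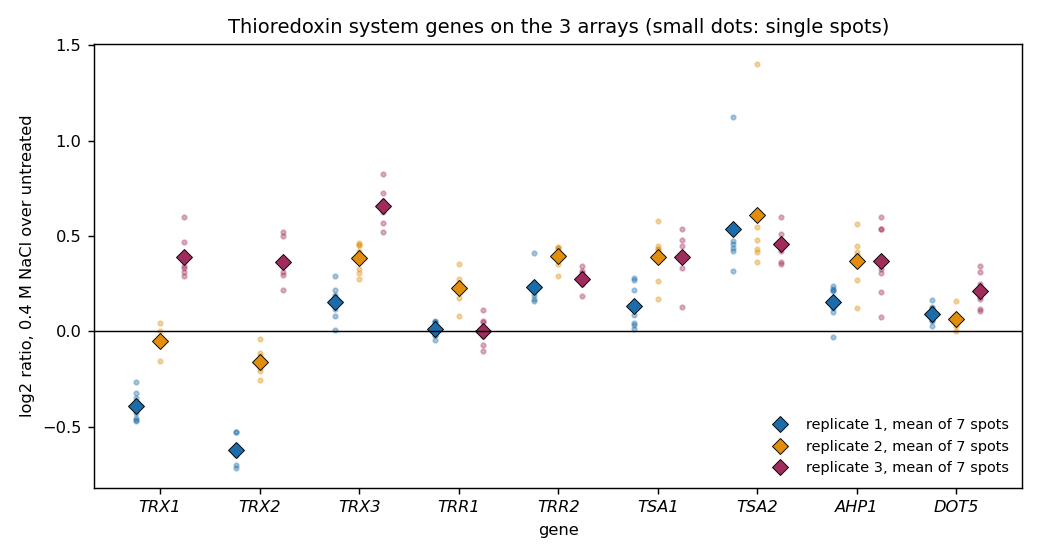
Log2 ratio of NaCl over untreated cells for the 9 genes on each array; diamonds are means of 7 spots and small dots are the single spots. TRX1 and TRX2 run from -0.39 and -0.62 in replicate 1 to 0.39 and 0.36 in replicate 3, while the 3 diamonds of TSA2 lie between 0.46 and 0.61.

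The thioredoxin genes differed most between arrays. TRX1 read -0.39 in replicate 1, -0.05 in replicate 2 and 0.39 in replicate 3. TRX2 read -0.62, -0.16 and 0.36 on the same arrays. Both cytosolic thioredoxin genes were therefore lower in NaCl in replicate 1 and higher in replicate 3, with replicate 2 between. In linear terms TRX2 ranged from 0.649-fold to 1.29-fold and TRX1 from 0.762-fold to 1.31-fold. Their means were close to 0: -0.02 ± 0.39 (SD, n = 3) for TRX1 and -0.14 ± 0.49 (SD, n = 3) for TRX2. Neither passed the test (limma, adjusted p = 0.927 and 0.513), and their intervals, 0.783 to 1.25-fold and 0.692 to 1.19-fold, leave changes in either direction possible.

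This disagreement lay between arrays and not between spots. All 7 spots of TRX1 and all 7 of TRX2 were below 0 in replicate 1, and none of either gene was below 0 in replicate 3. The spots of TRX2 spanned -0.71 to -0.53 in replicate 1 and 0.22 to 0.52 in replicate 3, so the arrays did not overlap. The SD over arrays was 5.65 times the SD between spots of 1 array for TRX2 and 4.52 times for TRX1. It was 0.829 (AHP1) to 2.76 times (TRX3) for the other members except TSA2, at 0.289 times, whose SD between spots includes the single high spot given above. By its SD over arrays TRX2 ranked 52nd and TRX1 213th of the 4069 genes. Only 11 genes, TRX2 among them, had a replicate 3 that exceeded replicate 1 by at least as much as in TRX2, where the difference was 0.99. The sign of the mean hung on replicate 1: without it, TRX1 stood at 0.17 (adjusted p = 0.242, limma) and TRX2 at 0.10 (0.520). Without replicate 3, TRX2 stood at -0.39 and passed the test (adjusted p = 0.0201, limma). In that fit the adjusted p followed the size of the mean, so the gap between its values of -0.62 and -0.16 had little weight.

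**Figure D3:**
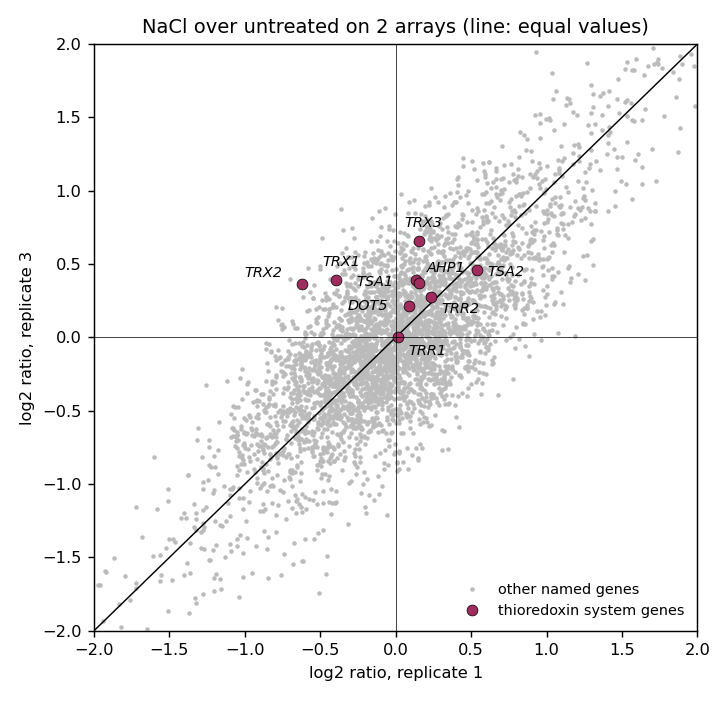
Log2 ratio in replicate 1 (horizontal) and replicate 3 (vertical) for 3944 named genes; 125 genes beyond 2 on either axis are not drawn. TRX1 and TRX2 lie far above the line of equal values, on the side where replicate 1 is below 0 and replicate 3 above 0, while TRR1, TRR2 and TSA2 lie near the line.

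Other genes shared this pattern. The 3 genes nearest to TRX2 over the arrays were the ribosomal protein genes RPL12B (distance 0.08) and RPS16A (0.10) and the mitochondrial cochaperonin gene HSP10 (0.12), which read -0.62, -0.08 and 0.27. Those nearest to TRX1, looked up after its values were seen, were likewise ribosomal protein genes: RPL33B, RPS18A and RPS11B. Over 130 genes of cytosolic ribosomal proteins the median was -0.11, 0.13 and 0.32 in the 3 replicates, and 112 of them (86.2%) were higher in replicate 3 than in replicate 1, against 48.9% of all genes. Among the 4069 genes, 467 were below 0 in replicate 1 and above 0 in replicate 3, and 67 of these were ribosomal protein genes.

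The mitochondrial thioredoxin gene TRX3 also varied, but above 0. It read 0.15, 0.39 and 0.66, with replicate 3 highest as for TRX1 and TRX2. The mean of 0.40 ± 0.25 (SD, n = 3) is a 1.32-fold increase (interval 1.09 to 1.59, adjusted p = 0.0202, limma). It did not pass when replicate 2 (adjusted p = 0.0836) or replicate 3 (0.123) was left out.

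Among the 9 genes, the excess of replicate 3 over replicate 1 tended to be larger in shorter genes. Length was looked at after the values were seen, and whether it plays a part was not tested. TRX1, TRX2 and TRX3 have coding lengths of 312, 315 and 384 bases in the R64 annotation, introns included, and replicate 3 exceeded replicate 1 by 0.78, 0.99 and 0.50. The peroxiredoxin genes, of 531 to 648 bases, differed by -0.08 (TSA2) to 0.25 (TSA1), and the reductase genes, of 960 and 1029 bases, by -0.01 and 0.04. Spearman's rho between length and this difference was -0.81 over the 9 genes, which share the arrays, and -0.18 over 4065 genes. The median difference was 0.13 for 201 genes under 400 bases and -0.07 for 1041 genes of 2000 bases or more. These medians are small beside the difference in TRX1 and TRX2. When the trend of each array with length was removed and gene means were kept, an alternative added with the values in view, TRX1 read -0.34, -0.02 and 0.32 and TRX2 -0.57, -0.13 and 0.30. The same 5 members rose there, with adjusted p from 0.00182 for TSA2 to 0.0251 for TSA1 (limma).

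**Figure D4:**
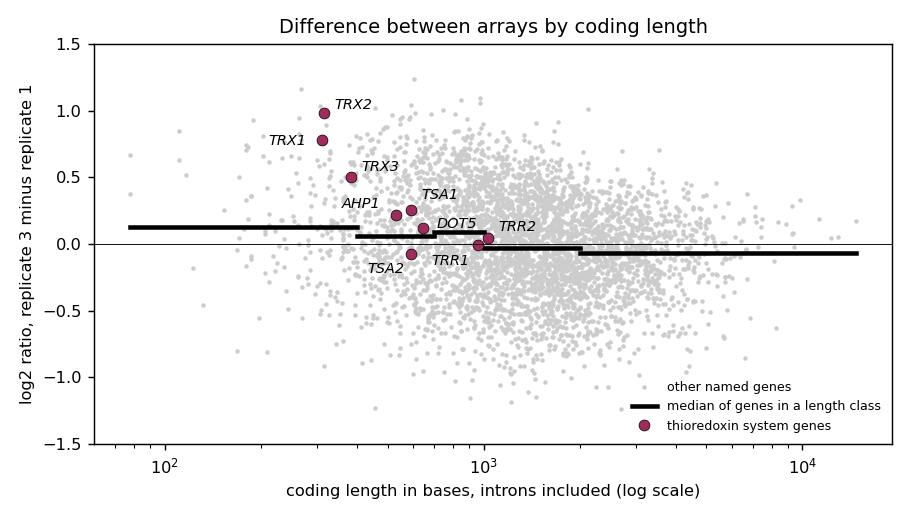
Log2 ratio in replicate 3 minus replicate 1 (vertical) against coding length in bases on a log scale (horizontal) for 4065 genes; black bars are medians of genes in 5 length classes. From the shortest to the longest class the bars stand at 0.13, 0.06, 0.09, -0.03 and -0.07, and TRX1 (0.78) and TRX2 (0.99) lie well above the bar of their class.

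The reductase genes were steadier. TRR2, which encodes the mitochondrial thioredoxin reductase, read 0.23, 0.39 and 0.28, with all arrays above 0. It rose 1.23-fold (interval 1.06 to 1.43, adjusted p = 0.0255, limma), but it did not pass without replicate 2 (adjusted p = 0.312) or without replicate 3 (0.0678). In these fits the adjusted p followed the size of the mean, which was 0.25 and 0.31. The values left, 0.23 with 0.28 or with 0.39, were all above 0. TRR1, the essential cytosolic reductase gene, read 0.01, 0.23 and 0.00. Its values in replicates 1 and 3 were at no change, and it did not pass (1.06-fold, interval 0.906 to 1.24, adjusted p = 0.503, limma).

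Paralogues were compared within each array, which cancels a shift that both genes share. TRR2 was above TRR1 in every culture, by 0.22, 0.16 and 0.27, so that TRR1 minus TRR2 had a mean of -0.22 ± 0.05 (SD, n = 3). TSA2 was above TSA1 in every culture too, but the gap differed: TSA1 minus TSA2 was -0.40, -0.22 and -0.07, with a mean of -0.23 ± 0.17 (SD, n = 3). The single high spot of TSA2 enters the gaps of replicates 1 and 2. By spot medians TSA1 read 0.08, 0.43 and 0.40 and TSA2 0.46, 0.48 and 0.47, a mean difference of -0.17. TRX1 exceeded TRX2 by 0.23, 0.11 and 0.03 (0.12 ± 0.10, SD, n = 3). TRX1 and TRX2 were thus closer to each other on every array than either was to itself between replicates 1 and 3. TRX3 exceeded TRX1 by 0.55, 0.43 and 0.27 and TRX2 by 0.78, 0.54 and 0.29, comparisons added after the values were seen. In each of these 5 pairs the sign was the same on all 3 arrays. An exact two-sided sign-flip permutation test over 3 arrays gave p = 0.25 for every pair (0.25 after adjustment over the 5), the smallest p that this test can give with 3 arrays, so it could not pass a threshold of 0.05 for any pair. TRX1 and TRX2, and likewise TSA1 and TSA2, are close paralogues, and spots of 1 gene may also measure the other; probe sequences were not used here.

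Ordered by mean, the genes ran TSA2, TRX3, TSA1, TRR2, AHP1, DOT5, TRR1, TRX1 and TRX2. Among neighbours in this order, AHP1 was above DOT5 and TRX1 above TRX2 on all 3 arrays. The other neighbours changed places on at least 1 array. TSA2 and TRX3, for example, differed by 0.38, 0.23 and -0.20. TSA1, TRR2 and AHP1 were apart by less than 0.01 on average and have no order.

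Genes around the thioredoxin chain were drawn up as 5 lists, whose values are given as counts with no set test. Of 12 partners and substrates of thioredoxin, 9 were measured. Of these 2 rose, 1 fell and 6 did not pass, with a median log2 ratio of -0.04. That is 22.2% that rose and 11.1% that fell, against 26.9% and 27.9% of all genes. Ribonucleotide reductase, which draws its electrons from thioredoxin or glutaredoxin, was split among its subunits. RNR1, the main large subunit gene, fell by 1.54 on the log2 scale (limma, adjusted p = 5.4e-06), with values of -1.61, -1.51 and -1.49. RNR3, the gene of the alternative large subunit, rose by 0.62 (adjusted p = 0.000803) and RNR2, a small subunit gene, by 0.48 (0.00518, lost without replicate 2 at 0.0629). RNR4, the other small subunit gene, had a mean of -0.01 and values of -0.20, -0.11 and 0.30. The glutathione peroxidase homologue gene HYR1, whose product is known as a peroxide sensor for Yap1 and is reduced by thioredoxin, read -0.36, -0.20 and 0.18 and did not pass (adjusted p = 0.406).

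The glutaredoxin and glutathione system runs parallel to thioredoxin and reduces disulfides with glutathione. Of its 11 genes 8 were measured, and 2 rose, 1 fell and 5 did not pass (median 0.20). GRX2, the gene of the main glutaredoxin, rose by 1.34 on the log2 scale (1.04, 1.36 and 1.62, adjusted p = 6.7e-05, limma), and GRX1 by 0.52 (0.50, 0.43 and 0.64, adjusted p = 0.00232). GRX1 has a coding length of 333 bases, close to that of TRX1, and its replicate 3 exceeded its replicate 1 by 0.14. Two-way differences like those of TRX1 were seen in this list too: the glutaredoxin gene GRX5, of 453 bases, read -0.46, -0.16 and 0.26. GRX4, of 735 bases, read -0.21, 0.23 and 0.51. In each of them replicate 3 exceeded replicate 1 by 0.72. Over the 8 measured genes this difference ran from -0.17 (GSH1) to 0.72. GSH1, the first enzyme gene of glutathione synthesis, fell by 0.46 (adjusted p = 0.00489), a call lost without replicate 2 (0.0850). Without replicate 1, GRX3, GRX4 and GLR1 also passed, for 5 that rose, in a fit where 31.5% of all genes rose.

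All 6 genes of other peroxide and superoxide defence rose, with a median of 0.64, where 26.9% of all genes rose. For CCS1, which encodes the copper chaperone of Sod1, the call was lost without replicate 2 (adjusted p = 0.292, limma) or without replicate 3 (0.0671), which left 5. The cytosolic catalase gene CTT1 rose 122-fold (adjusted p = 2.5e-08, limma), and next came SOD1 at 1.80-fold, CTA1 at 1.60-fold and SOD2 at 1.51-fold. CTT1, which like peroxiredoxins removes hydrogen peroxide, thus stood 6.93 above no change on the log2 scale where TSA2 stood 0.54 above it. Of 12 genes of NADPH supply 11 were measured, and 6 rose, 1 fell and 4 did not pass (median 0.65). That is 54.5% that rose and 9.09% that fell, against 26.9% and 27.9% of all genes. SOL4, a gene of the pentose phosphate pathway, rose 45.0-fold, GND2 4.69-fold, the aldehyde dehydrogenase gene ALD6 4.20-fold and IDP2, for cytosolic isocitrate dehydrogenase, 2.95-fold. POS5, which encodes the mitochondrial NADH kinase, fell by 0.44 (adjusted p = 0.0202), with values of -0.77, -0.42 and -0.14.

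Of 5 regulators, 4 were measured. MSN2, a gene of the general stress response, rose by 1.87 on the log2 scale (adjusted p = 1.19e-05, limma). YAP1, whose product is the main activator of thioredoxin system genes under peroxide, rose by 0.57 (0.68, 0.52 and 0.50, adjusted p = 0.00148). SKN7, whose product acts with Yap1 at many of those genes, fell by 0.37 (-0.44, -0.29 and -0.39, adjusted p = 0.00976), a call lost without replicate 2 (0.0760). MSN4 had a mean of -0.22 and did not pass (adjusted p = 0.133). TRX2 and TRR1, which are known targets of Yap1 and Skn7 under peroxide, did not pass on these arrays, as given above.

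**Figure D5:**
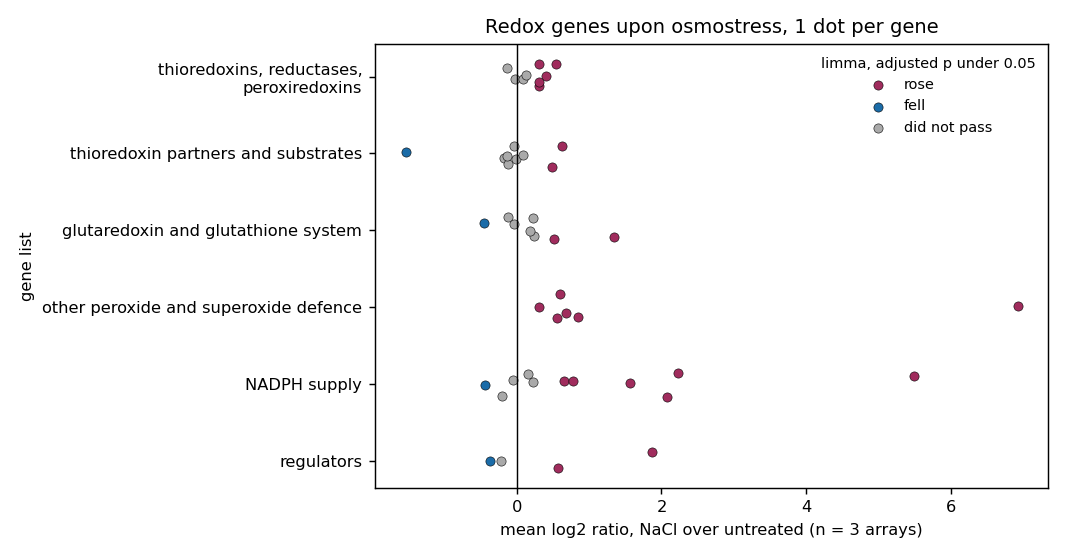
Mean log2 ratio of NaCl over untreated cells (n = 3 arrays) for each gene of the thioredoxin system and of the 5 lists around it; colours give the call from limma, and the vertical spread within a row has no meaning. The 9 thioredoxin system genes lie between -0.14 and 0.54, while CTT1 reaches 6.93 and SOL4 5.49.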

How the data were processed

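Expression was measured on 3 two-colour arrays, each with stressed and untreated RNA of 1 culture. The authors deposited 1 normalized log2 ratio per spot, made with limma per the labels. The sources used here do not give its version, the background correction or the normalization. The log base and the direction are not stated with the values: the 385 named genes that the study listed as osmoresponsive had a lowest mean of 0.72, near the log2 of the fold threshold used there (0.81). Of 45220 spots, 28532 carried a symbol, and 4069 genes remained after symbols were updated through the R64 gene table. With no spot intensities at hand, no filter on dim spots was applied, and the number of arrays limits the precision.

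Spots were averaged per gene and array, and limma (version 3.58.1, R 4.3.3) fitted an intercept with empirical Bayes, two-sided, with Benjamini-Hochberg adjustment over 4069 genes at 0.05. The fit was also run on simulated data in which few genes changed, unlike here. That run does not give the error rates of the fit on these arrays. Both channels share an array, which is thus the block. The p-values rest on the spread between 3 cultures, each on its own array, so culture and array cannot be told apart. Empirical Bayes also draws the variance of each gene towards that of all genes. Members, lists, tests and alternatives were chosen with earlier results of these data known. Named were all members, from each list the genes past the threshold that changed most (at most 4), the 3 genes nearest to the highest and the lowest member, and genes that settle the direction; HYR1, RNR4, MSN4, POS5, CCS1, GRX3, GRX4, GLR1 and the genes named for a changed sign were added after their values were seen. Alternatives were centring, scaling, spot medians, robust empirical Bayes, a threshold of 0.01, leaving out variable genes or a replicate, and, added later, removal of each array's trend with coding length (loess, span 0.3). Figures were drawn with matplotlib in Python 3.11.15.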

Additional observations from a re-analysis of the deposited data

How the results depend on the processing

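Under centring, scaling, spot medians, robust empirical Bayes, leaving out genes with a range over 1 and removal of the trend with coding length, 5 members rose and none fell. At a threshold of 0.01, 1 member rose and none fell, where 19.9% of all genes rose and 19.0% fell. The fall of POS5 was lost at that threshold, leaving 0 in NADPH supply. The rise of CCS1 was lost there too, leaving 5 in other peroxide and superoxide defence. Leaving out each replicate in turn gave 1 to 5 members that rose and 0 to 1 that fell. It gave 1 to 2 partners and substrates of thioredoxin that rose, 2 to 5 glutaredoxin and glutathione genes that rose and 0 to 1 that fell, and 0 to 1 regulators that fell. Over all genes the shares moved in these fits too: 19.1% to 31.5% rose and 17.1% to 32.9% fell. The number that fell ran from 695 without replicate 2 to 1340 without replicate 1.

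Leaving out 1 replicate turned the sign of the mean for 7 genes, none of which passed the test with all arrays. Their means ranged from -0.22 to 0.17 for TRX1, from -0.39 to 0.10 for TRX2, from -0.16 to 0.09 for RNR4, from -0.28 to 0.05 for GPX2, from -0.31 to 0.05 for GRX5, from -0.10 to 0.06 for GSH2 and from -0.18 to 0.07 for IDP1. Centring turned RNR4 to 0.01. The differences TRX1 minus TRX2, TRR1 minus TRR2 and TSA1 minus TSA2 kept their sign under every alternative run. The differences of TRX3 from TRX1 and from TRX2 were not put through the alternatives. Each ratio is already paired within an array, so no further block was fitted. What these changes stem from was not tested.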
